A study of Mus musculus with 6 samples.

Results

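Ubd encodes FAT10, a ubiquitin-like protein, and was followed across mouse hepatocytes exposed to tumour necrosis factor alpha (TNFα) for a short and a long time. The gene was selected on its measured 2 day intensities against the untreated and 2 hour ones, so its levels, differences and ranks are given as a description, without a test. Of the 45281 probes on the arrays, 1 is annotated to Ubd, which is 1 of 19057 genes with a named probe and 1 of the 13438 that passed the filter on dim probes. The cells were primary hepatocytes, the parenchymal cells of the liver kept in culture, from male C57Bl/6J mice (the labels give no age). There were 3 groups of 2 single-colour Illumina arrays: untreated cells, cells exposed for 2 hours and cells exposed for 2 days, in both cases to recombinant murine TNFα at 2 ng/mL. All groups were kept on collagen in Williams' E medium with fetal calf serum, antibiotics, dexamethasone (a synthetic glucocorticoid) and insulin. No label tells whether replicate arrays stand for different mice, cultures or only hybridisations, so the p-values may reflect technical spread alone. The untreated cells have no stated time in culture, so TNFα exposure and days in culture cannot be told apart at 2 days.

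FAT10 consists of a pair of ubiquitin-like domains in tandem. The enzyme Uba6 activates it, Ube2z passes it on to target proteins, and a protein that carries FAT10 is degraded by the proteasome without the need for ubiquitin. The gene lies in the class I region of the major histocompatibility complex, where many antigen presentation genes stand. In humans and mice it is known as a gene that TNFα and interferon gamma induce together, and it is expressed in lymphoid organs and mature dendritic cells. In the liver it is known for high levels in hepatocellular carcinoma and in hepatocytes that form Mallory-Denk bodies, which are aggregates of keratins.

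The window around the start of Ubd is shown because NF-κB, the transcription factor that TNFα activates, binds short sequences of a defined form. It covers chr17:37193642-37193941 on the plus strand of GRCm38.p6 (RefSeq), from 250 bases before to 50 bases after the transcription start. The capitals mark the match to the NF-κB consensus.

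Ubd promoter: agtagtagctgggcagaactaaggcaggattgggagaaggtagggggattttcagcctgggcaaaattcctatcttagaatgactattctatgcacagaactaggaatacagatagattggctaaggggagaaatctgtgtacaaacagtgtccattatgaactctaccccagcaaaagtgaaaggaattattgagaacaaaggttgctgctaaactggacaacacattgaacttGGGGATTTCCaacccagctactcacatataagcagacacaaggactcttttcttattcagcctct

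The 10 letters in capitals ran from position -15 to position -6 relative to the start, on the plus strand, and were the only match on either strand. Of all 32851 promoter windows of this length in the RefSeq table, 4.51% held at least 1 match to the same consensus. The core of the interferon-stimulated response element (in 3.44% of windows), the gamma-activated sequence (TTCNNNGAA, in 8.3%) and the TATA box letters (TATAAA, in 13.6%) were not in this window on either strand. CCAAT was present 2 times, both on the minus strand (ATTGG in the letters shown). At least 1 match on either strand was in 37.4% of windows. These are matches of letters, not measured binding sites.

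Ubd was dim in untreated cells and only slightly brighter after 2 hours, and it was bright after 2 days. The deposited intensities were 283 and 251 on the untreated arrays, 388 and 330 on the 2 hour arrays, and 2120 and 2903 on the 2 day arrays. The groups did not overlap, and the largest gap lay between 2 hours and 2 days. The mean intensity was 267 ± 22.6 in untreated cells, 359 ± 41.2 at 2 hours and 2512 ± 553 at 2 days (SD, n = 2 each).

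**Figure D1:**
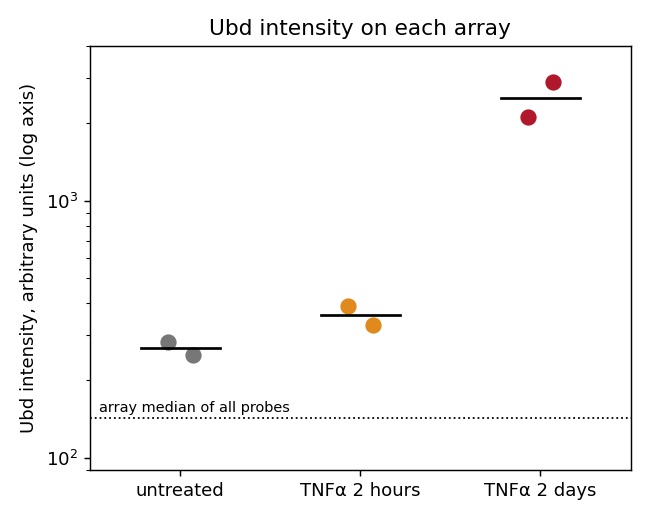
Deposited intensity of the Ubd probe on each of the 6 arrays (log axis), with the group mean as a bar and the median of all probes as a dotted line. The 2 day arrays, at 2120 and 2903, stand above the 2 hour arrays, at 388 and 330, which stand above the untreated arrays, at 283 and 251.

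On the log2 scale the 2 day mean lay 3.22 above the untreated mean (SE 0.12), a 9.3-fold difference. The SEs given here are moderated by limma, which draws them toward the spread of other genes. The pooled SD of Ubd itself within groups was 0.22, and an SE from Ubd alone would be as large as that SD. The 2 day mean lay 2.79 above the 2 hour mean (SE 0.12), or 6.93-fold. The 2 hour mean lay 0.42 above the untreated mean (SE 0.12), or 1.34-fold. This last difference exceeded the SD within either group, 0.17 at 2 hours and 0.12 in untreated cells, and the 4 arrays did not overlap. Among all genes tested, 18% also had both 2 hour arrays above both untreated arrays. The corresponding shares were 26.1% for 2 days above untreated and 29.4% for 2 days above 2 hours.

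The 2 arrays taken at 2 days disagreed more on Ubd than on nearly any other gene. Replicate 2 was 1.37-fold brighter than replicate 1, and only 91 of 13438 genes (0.677%) had a larger gap between these arrays. The gap was 1.18-fold at 2 hours and 1.13-fold in untreated cells, which 11.9% and 26.4% of genes exceeded. Even with the dimmer 2 day array alone, the mean difference from untreated cells was 7.95-fold, and with the brighter one alone it was 10.9-fold.

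No value in the deposited table was below 96.5, and every array's median was about 143, so the intensities still held their background and the folds of a dim probe are understated. After a normexp background correction Ubd stood at 192 and 160 on the untreated arrays, 297 and 239 on the 2 hour arrays, and 2029 and 2812 on the 2 day arrays. The 2 day difference from untreated cells was then 13.6-fold, that from 2 hours 8.97-fold and the 2 hour difference from untreated cells 1.52-fold. With 1 probe for the gene, no second probe could be set beside it.

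Ranked by signed log2 difference among the 13438 named genes, Ubd stood 1st at 2 days against 2 hours and 2nd at 2 days against untreated cells. Only Ccl2, a chemokine that attracts monocytes, stood above it at 2 days against untreated cells, with 10.1-fold. The next below were Saa3, an acute phase serum amyloid (4.93-fold), Guca2b, the gut peptide uroguanylin (4.27-fold), and Vcam1, a leukocyte adhesion molecule (4.15-fold). Guca2b had 362 and 752 on the 2 day arrays and passed the filter on dim probes through these arrays alone. The 2 other probes of Vcam1 gave log2 differences of 0.05, not called, and 0.50, called, at 2 days against untreated cells. At 2 days against 2 hours the genes next below Ubd were Guca2b (3.96-fold), Guca2a, which encodes guanylin (3.2-fold), and Gpr176, an orphan G protein-coupled receptor (2.98-fold). On the deposited intensities the step from Ubd down to the next gene was thus wide in both rankings. The step up to Ccl2 at 2 days against untreated cells was small. After normexp the wide step above Guca2b was not kept, as given below.

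At 2 hours against untreated cells Ubd was 208th of 13438. This place rested on single arrays: it was 475th without replicate 1 and 136th without replicate 2 of the 2 hour group, and 342nd without untreated replicate 2. Without replicate 1 of the 2 day group Ubd was 1st against untreated cells. After normexp Guca2b, whose untreated intensities of 124 and 121 lay below the array median, passed Ubd in both rankings, with 13.7-fold against untreated cells and 10.4-fold against 2 hours. Ubd was then 3rd and 2nd.

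Few of the genes that rose most by 2 days shared the late course of Ubd. Of the other 9 genes among the 10 largest rises at 2 days, 7 were also called higher at 2 hours by limma (Benjamini-Hochberg adjusted p under 0.05), where 1.76% of all genes were. The exceptions were Guca2b (0.11 on the log2 scale at 2 hours, adjusted p = 0.897) and Guca2a (0.14, adjusted p = 0.827). Ccl2 was already up by 3.65 at 2 hours and Saa3 by 2.00. Vcam1 was higher at 2 hours than at 2 days, at 3.35 against 2.05 above untreated cells. Both differences are taken from the same untreated arrays. The 2 other probes of Vcam1 gave 0.08, not called, and 0.84, called, at 2 hours.

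**Figure D2:**
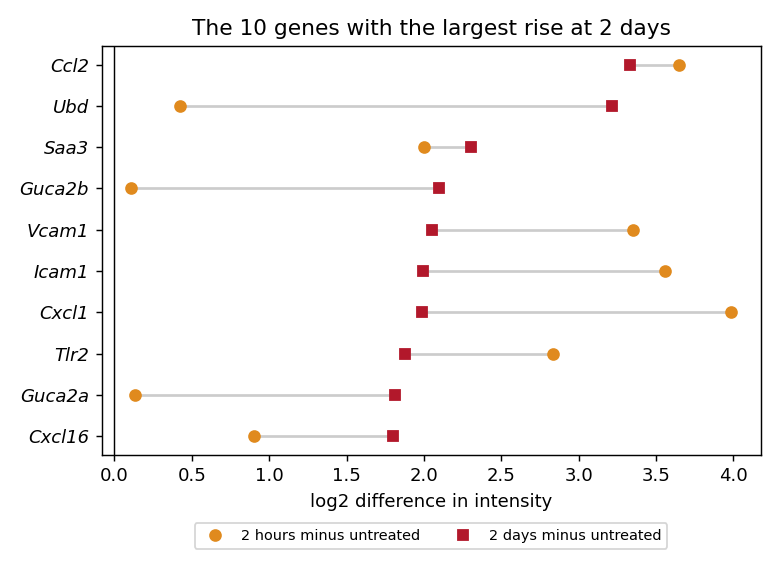
Log2 difference from untreated cells at 2 hours (circles) and 2 days (squares) for the 10 genes with the largest rise at 2 days. Ubd, at 0.42 and 3.22, has the longest distance from the 2 hour to the higher 2 day value, followed by Guca2b and Guca2a.

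In the wider set the late course was common. The 2 hour difference of Ubd was 13.2% of its 2 day difference on the log2 scale. Beside Ubd, 79 genes were called higher by at least 2-fold at 2 days, with a median share of 19.1%, and 34 of them had a smaller share than Ubd. By limma 30 of the 79 were called higher at 2 hours, 0 lower, and 49 were not called. Of all genes 1.76% were called higher and 1.06% lower at 2 hours. A small share at 2 hours was thus common in this set, while 1 gene had a larger 2 day difference than Ubd.

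Among the 243 other genes whose group means spanned at least 1 on the log2 scale, the 8 with the highest Pearson correlation with Ubd over the 6 arrays lay at r = 0.990 to 0.997. In all 50 of the 243 exceeded 0.95, and the 6 points share their arrays with every gene, so r is given as a description. The choice of genes high where Ubd was high fixes their course, so their levels are a description, with no test. The closest was Oasl2, an antiviral oligoadenylate synthetase-like protein (r = 0.997), with intensities of 153 and 141 on the untreated, 159 and 156 on the 2 hour, and 377 and 433 on the 2 day arrays. Its 2 day arrays stood alone, with a 2.75-fold difference from untreated cells.

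Serpina12, the secreted serpin vaspin, followed at 2.77-fold, Maged2, a MAGE family protein, at 2.81-fold, and Fgf13, an intracellular fibroblast growth factor homologue, at 3.03-fold. The others were Msn (2.5-fold), which links actin to the membrane, Oas1g (2.07-fold), from a family of near-identical oligoadenylate synthetases, Arpc1b (2.16-fold), an actin nucleation subunit, and the keratin Krt17 (3.3-fold). The Ubd difference, at 9.3-fold, was larger than any of these. Other probes, where a gene had them, all gave smaller log2 differences at 2 days from untreated cells than the probe used. Those of Arpc1b gave 0.84 and 0.57, that of Msn 0.65, those of Oas1g 0.86 and -0.04, and those of Fgf13 0.50 and -0.00198. Those of Oasl2 gave 0.15 and -0.07 and that of Serpina12 gave 0.18. Of the 7 with a promoter window in the RefSeq table (all but Krt17), Fgf13 alone had a match to the NF-κB consensus.

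**Figure D3:**
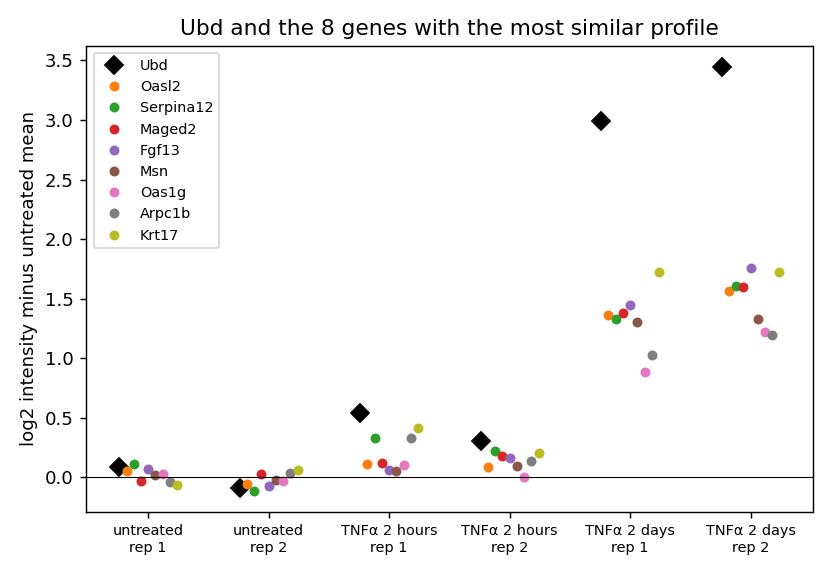
Log2 intensity minus the untreated mean on each of the 6 arrays for Ubd (black diamonds) and the 8 genes with the highest correlation with it. All 9 are high on the 2 day arrays alone, and Ubd reaches 3.44 on the brighter array, against at most 1.76 for the others.

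The enzymes that put FAT10 onto its targets were not called in any comparison. Uba6, the activating enzyme, had intensities of 357 and 308 on the untreated, 402 and 432 on the 2 hour, and 344 and 359 on the 2 day arrays. Its 2 day arrays lay within or just above the untreated range, with a log2 difference of 0.08 (SE 0.10, adjusted p = 0.739 by limma), and its 2 hour difference was 0.33 (adjusted p = 0.11). The conjugating enzyme Ube2z had 310 and 317 on the untreated, 321 and 337 on the 2 hour, and 321 and 312 on the 2 day arrays. The 2 day difference of Ube2z was 0.02 (SE 0.10, adjusted p = 0.958), and its 2 other probes gave -0.07 and 0.07.

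Of 12 listed genes for the activation, conjugation and binding of FAT10, 9 were tested, and Nub1, Uba1 and Trp53 were not analysed here. By limma 2 of the 9 were higher and 0 lower at 2 days against untreated cells, where 12.7% of all genes were called, 6.74% higher and 5.92% lower. They were Vcp (0.36), an ATPase that unfolds proteins for degradation, and Sqstm1 (0.34), the autophagy receptor p62. At 2 hours 0 of 9 were called and 3 had an unadjusted p under 0.05, where 2.82% of all genes were called, 1.76% higher and 1.06% lower. At 2 days against 2 hours 2 were higher, Vcp (0.37) and the mitotic checkpoint protein Mad2l1 (0.45), where 15.3% of all genes were called, 8.63% higher and 6.67% lower.

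The remaining members gave no call in any comparison. At 2 days against untreated cells Psmd4, a ubiquitin receptor of the proteasome, gave 0.12, the deacetylase Hdac6 0.14, the chaperone Aipl1 -0.02 and the deubiquitinase Otub1 -0.24. The list's median was 0.12, beside 0.01 over all genes. The 2 calls at 2 days fell to 0 without untreated replicate 1 and to 1 without either 2 day array and in a fit of the compared groups alone. At 2 days against 2 hours they fell to 0 without replicate 1 of the 2 hour group and to 1 without its replicate 2 or replicate 2 of the 2 day group. After normexp 0 of 9 were called in any comparison.

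Of 21 listed other ubiquitin-like modifiers and ubiquitin genes 14 were tested, and 3 were higher at 2 days against untreated cells and 0 lower, or 21.4% beside 12.7% of all genes. The median of the 14 was -0.03. Isg15 was higher at 2 days than at 2 hours (0.78) and Atg12, an autophagy modifier, lower (-0.32). That was 14.3% of the 14 called, beside 15.3% of all genes. The Atg12 call was lost after normexp and without either 2 hour array or replicate 2 of the 2 day group. Isg15, an interferon-induced modifier that also has a pair of ubiquitin-like domains, had 422 and 363 on the untreated, 579 and 538 on the 2 hour, and 872 and 1046 on the 2 day arrays. It was higher at each later time without overlap, 2.44-fold at 2 days (log2 1.29, SE 0.11, adjusted p = 3.1e-09) and 1.43-fold at 2 hours. The 2 hour call, 7.14% of the 14 beside 2.82% of all genes, was lost after normexp and without untreated replicate 2 or either 2 hour array. The others were Ubl5, an atypical modifier of splicing factors (0.45), and Nedd8, which activates cullin ligases (0.40). Both were lost after normexp and without replicate 2 of the 2 day group, and Nedd8 also without untreated replicate 2.

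In contrast to Uba6 and Ube2z, the activating and conjugating enzymes of Isg15 both rose. Uba7, its activating enzyme, had 303 and 306 on the untreated, 338 and 383 on the 2 hour, and 595 and 637 on the 2 day arrays, a 2.02-fold difference at 2 days (adjusted p = 4.81e-08). Ube2l6, its conjugating enzyme, had 641 and 590 on the untreated, 709 and 767 on the 2 hour, and 1046 and 1362 on the 2 day arrays, a 1.94-fold difference (adjusted p = 8.83e-07). Neither was called at 2 hours, at 0.24 and 0.26 on the log2 scale (adjusted p = 0.312 and 0.339). Of the 11 tested enzymes for other modifiers, Sae1, of the SUMO pathway, was the third one higher at 2 days (0.33) and Atg3, of the autophagy pathway, the one lower (-0.40), so that 36.4% were called beside 12.7% of all genes, with a median of -0.08. Against 2 hours these 3 enzymes were again higher, at 0.77 for Uba7, 0.69 for Ube2l6 and 0.42 for Sae1. Atg3 (-0.34) and Atg10 (-0.42) of the autophagy pathway were lower, so that 45.5% of the 11 were called beside 15.3% of all genes. The calls of Sae1, Atg3 and Atg10 against 2 hours were lost after normexp and without replicate 2 of the 2 hour group. Against untreated cells the calls of Sae1 and Atg3 were lost after normexp and without untreated replicate 1 or replicate 1 of the 2 day group, and that of Sae1 also with a replicate block, with cyclic loess, without the filter, in a fit of the compared groups alone and without replicate 2 of the 2 day group. The difference between the Uba6 and Uba7 changes was not tested.

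FAT10 conjugates are handed to the 26S proteasome, whose subunits were mostly not called. By limma 1 of 27 tested subunits was higher at 2 days against untreated cells, Psma7 (0.43), or 3.7% beside 12.7% of all genes, while 9 had an unadjusted p under 0.05. The median of the 27 was 0.18. The Psma7 call was lost after normexp and without untreated replicate 1 or replicate 2 of the 2 day group. The other probe of Psma7 gave 0.18, not called. Set against 2 hours, 3 were higher at 2 days, Psma5 (0.33), Psma7 (0.33) and Psmd2 (0.32), or 11.1% beside 15.3% of all genes, and 13 had an unadjusted p under 0.05. The 3 calls became 0 after normexp or without replicate 1 of the 2 hour group, and 1 without replicate 2 of the 2 hour or of the 2 day group. At 2 hours 0 of 27 were called, and 0 had an unadjusted p under 0.05.

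Genes of the immunoproteasome and of class I peptide loading, which interferon gamma is known to induce as it does Ubd, rose widely. Of 18 tested, 15 were higher and 0 lower at 2 days against untreated cells (83.3% called beside 12.7% of all genes, median 0.57). At 2 hours 3 were higher (16.7% beside 2.82%), and 11 were higher at 2 days than at 2 hours (61.1% beside 15.3%). Psmb10 and Psmb8, catalytic subunits of the immunoproteasome, led with 2.62-fold and 2.54-fold at 2 days. Psmb8 had 839 and 968 on the untreated, 1146 and 1169 on the 2 hour, and 2263 and 2318 on the 2 day arrays, with its 2 day arrays far above the rest, while its other probe gave 0.58 on the log2 scale (adjusted p = 0.000948). The peptide loading protein Tapbp followed at 0.99 on the log2 scale and the class I heavy chain H2-K1 at 0.80. Other probes of H2-K1 gave 0.17, not called, and 0.59, called. After normexp 6 members were higher at 2 days, 0 at 2 hours and 4 at 2 days against 2 hours. The last count was 7 without replicate 2 of the 2 hour or of the 2 day group. Each of these rises was smaller than that of Ubd.

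**Figure D4:**
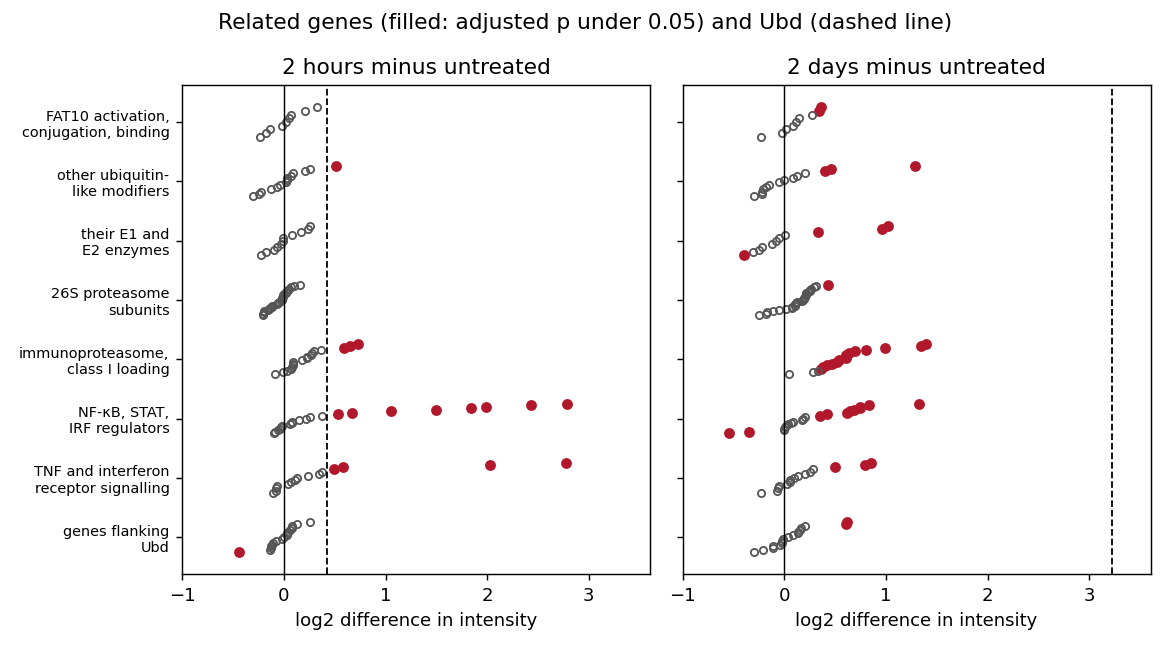
Log2 difference from untreated cells at 2 hours (left) and 2 days (right) for the tested members of 8 gene lists. Each point is a gene, filled where the adjusted p was under 0.05, and the dashed line marks Ubd at 0.42 on the left and 3.22 on the right. Every point on the right lies left of the line, while several NF-κB and TNF signalling genes lie right of it at 2 hours.

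Most of the called transcription factors and inhibitors that act on cytokine-induced genes were higher at 2 hours than at 2 days, unlike Ubd. Irf1, an interferon regulatory factor, had 1147 and 1073 on the untreated, 6984 and 8318 on the 2 hour, and 1681 and 2061 on the 2 day arrays. It was 6.87-fold higher at 2 hours than in untreated cells, still 1.68-fold higher at 2 days (adjusted p = 2.93e-05), and lower by 2.03 on the log2 scale at 2 days than at 2 hours (-2.03, adjusted p = 1.24e-12). Its 4 other probes gave 0.02 to 0.64 at 2 days against untreated cells, 2 of them called. Of 21 tested NF-κB, STAT and IRF genes 8 were higher at 2 hours and 0 lower, or 38.1% beside 2.82% of all genes. At 2 days 9 were higher and 2 lower than in untreated cells (52.4% beside 12.7% of all genes). Against 2 hours 3 were higher and 11 lower (66.7% beside 15.3%).

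The inhibitors Nfkbia and Nfkbie and the subunit Relb had log2 differences from untreated cells of 2.43, 1.98 and 1.84 at 2 hours and of 1.32, 0.68 and 0.74 at 2 days. The other probes of Nfkbia and Nfkbie gave 0.13 and 0.07 at 2 days, not called. Irf7, a factor of the interferon response, was higher at 2 days than in untreated cells (0.84, adjusted p = 5.08e-06) and than at 2 hours (0.62). After normexp 7 of the 21 were higher at 2 hours. Against 2 hours, 6 were lower at 2 days after normexp and 7 without replicate 2 of the 2 day group. The 2 falls against untreated cells became 0 after normexp and 1 without untreated replicate 1, without either 2 day array and in a fit of the compared groups alone.

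Among TNF and interferon receptors and their proximal signalling genes 4 of 15 were higher at 2 hours and 3 at 2 days, with 0 lower at either time. The shares were 26.7% beside 2.82% of all genes at 2 hours, and 20% beside 12.7% at 2 days. The ubiquitin-editing enzyme Tnfaip3 (2.77 at 2 hours, 0.85 at 2 days) and the ubiquitin ligase Birc2 (2.03 and 0.79) led at both times. Other probes of Birc2 gave 1.05, 1.11 and 0.84 at 2 hours, all called, but 0.25, 0.08 and 0.22 at 2 days, not called. The interferon gamma receptor chains Ifngr1 (0.58) and Ifngr2 (0.49) made up the other 2 at 2 hours. Neither was called after normexp, nor when untreated replicate 1 or the first 2 hour array was left out. The 2 hour call of Ifngr2 was also lost without the filter and without the second 2 hour array. Ifngr2 was also the third gene higher at 2 days (0.50). Its 2 day call was lost after normexp and without replicate 1 of the untreated or of the 2 day group. Other probes of Ifngr2 gave 0.29, not called, and 0.42, called, at 2 days. Set against 2 hours, 3 of the 15 were lower at 2 days and 0 higher, or 20% beside 15.3% of all genes.

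The genes that flank Ubd on its chromosome were set beside it. Of the 40 nearest named protein-coding genes, 20 on each side, 17 were tested and 23 were not, many of them dim olfactory receptor genes. At 2 days against untreated cells 2 of the 17 (11.8%) were higher and 0 lower, beside 12.7% of all genes. They were the class I-like genes H2-M2 (0.61) and H2-M3 (0.61, adjusted p = 0.000118 by limma). H2-M2 had 133 and 125 on the untreated, 132 and 131 on the 2 hour, and 203 and 191 on the 2 day arrays. It passed the filter on dim probes through its 2 day arrays alone, so its calls at 2 days are only a description. H2-M3, the 6th gene from Ubd, had 243 and 247 on the untreated, 280 and 241 on the 2 hour, and 381 and 366 on the 2 day arrays. Set against 2 hours, 3 of the 17 were higher at 2 days and 0 lower, H2-M2 (0.58), H2-M3 (0.52) and the ubiquitin ligase Trim26 (0.33), or 17.6% beside 15.3% of all genes called and 8.63% called higher. The count was 2 after normexp and without either 2 hour array or replicate 2 of the 2 day group. The immediate neighbour tested, the olfactory receptor gene Olfr93, gave -0.11 at 2 days against untreated cells and was not called. At 2 hours 1 of the 17 was lower, Znrd1as (-0.44), or 5.88% beside 2.82% of all genes called and 1.06% called lower. That call was lost after normexp and without untreated replicate 1 or either 2 hour array.

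Of 13 genes for Mallory-Denk body components and related stress proteins, 2 were higher at 2 days, the keratin Krt23 (0.52) and Sqstm1, and 0 lower, a share of 15.4% beside 12.7% of all genes. Between the times 3 were lower at 2 days than at 2 hours and 0 higher, the stress regulator Nfe2l2 (-0.41), the chaperone Hspa1a (-0.36) and the transglutaminase Tgm2 (-0.32), beside 15.3% of all genes called. These falls numbered 0 after normexp and without replicate 2 of the 2 hour or of the 2 day group, and 1 without replicate 1 of the 2 day group. Nfe2l2 was also the one member called at 2 hours, where it was higher (0.65), or 7.69% beside 2.82% of all genes. That call was lost after normexp. The keratins that form these bodies, Krt8 and Krt18, gave -0.13 and -0.20 and were not called. The rises of Krt23 and Sqstm1 were lost after normexp and without replicate 2 of the 2 day group, and that of Sqstm1 also without untreated replicate 1, with cyclic loess, with the mean of its probes and in a fit of the compared groups alone.

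Since Ubd is also expressed by immune cells, markers of other cell types were set beside it. In bulk RNA, more cells of a type and more RNA per cell cannot be told apart. Of 8 tested macrophage markers 3 were higher at 2 days against untreated cells and 0 lower, or 37.5% beside 12.7% of all genes. They were the complement genes C1qa (0.36), C1qb (0.75) and C1qc (0.42), named here after their values were seen, and the count was 1 without replicate 2 of the 2 day group. Higher at 2 days than at 2 hours were 4 of the 8 (50% beside 15.3% of all genes), the same C1q genes (0.30, 0.65 and 0.37) and Vsig4 (0.31), a complement receptor. The count of 4 became 1 after normexp and without either 2 hour array or replicate 2 of the 2 day group. The summed intensity of the 8 was 1582 to 1740 at 2 days, against 1373 to 1411 in untreated cells. Of 4 tested dendritic cell markers 1, Zbtb46, was higher (0.31), a call lost without any 1 untreated or 2 day array and in a fit of the compared groups alone, with sums of 632 to 644 at 2 days against 604 to 619 in untreated cells. Of 4 tested lymphocyte markers 0 were called in any comparison by limma and 0 had an unadjusted p under 0.05, and the sums were 585 to 589 at 2 days against 569 to 571 in untreated cells. The part of these cell types in the Ubd difference was not tested.

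In the same comparison, where 12.7% of all genes were called, 1 of 8 endothelial markers was higher at 2 days, Oit3 (0.43), and 1 lower, Stab2 (-0.37), with sums of 1581 to 1657 at 2 days against 1598 to 1715 in untreated cells. Of 5 stellate cell markers 1 was higher, the actin Acta2 (0.67), and 1 lower, Reln (-0.82), with sums of 3192 to 3872 at 2 days against 2462 to 2881 in untreated cells. The call of Oit3 was lost without untreated replicate 2 or 2 day replicate 1, that of Stab2 without untreated replicate 1 or either 2 day array, and that of Acta2 without untreated replicate 1 or 2 day replicate 2. All of these calls were also lost after normexp. Of 3 bile duct markers 1 was higher, the transcription factor Sox9 (1.78), with sums of 3180 to 3424 at 2 days against 1192 to 1208 in untreated cells. The other bile duct markers were not called, and the median log2 difference of the 3 was 0.19, so the sums do not stand for a rise shared by all 3. These genes too were named after their values were seen, and their part in the Ubd difference was not tested. Of 9 tested hepatocyte markers 5 were lower and 0 higher, with sums of 70027 to 74816 at 2 days against 113226 to 120356 in untreated cells. The median log2 difference of the 9 was -0.82, beside 0.01 over all genes, and 55.6% were called. Albumin, Alb, the main secreted protein of hepatocytes, gave -0.13 and was not called.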

How the data were processed

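The members and gene lists were chosen with earlier results of these data known. Per the labels' protocols, total RNA was made into biotinylated cRNA for Illumina arrays. The deposited table holds 1 linear intensity per probe and array. The labels name no software of the authors for scanning or normalization. The array medians lay between 143.16 and 143.22, and the values were used without further scaling, on a log2 scale. Probes were named by the platform annotation (34885 with 1 symbol, 18 with several, 10378 not listed), with 34807 symbols updated through RefSeq GRCm38.p6. Probes above the array median on 2 or more arrays were kept, and a gene was its brightest kept probe (13438 genes). The model, with 1 mean for each group over the 6 arrays, was fitted in limma 3.58.1 (R 4.3.3) with moderated variances (3 residual and 21.2 prior degrees of freedom), so that a p-value rests mostly on the spread shared over genes. A Benjamini-Hochberg adjusted p under 0.05 made a call, with 1701 called at 2 days against untreated cells, 379 at 2 hours and 2056 between the times. The fit was tested on simulated data. Arrays of 1 group correlated at 0.995 to 0.996. The few arrays limit the precision. Named were Ubd, the FAT10 list, up to 4 called genes per list and comparison, the 8 genes most like Ubd and its neighbours in rank. RefSeq protein sequences were not used here. The alternatives were normexp, an offset of 16, cyclic loess, median centring, other filters, the mean of a gene's probes, other variance models, a replicate block and leaving out each array.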

Additional observations from a re-analysis of the deposited data

How the results depend on the processing

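Normexp moved the Ubd log2 difference to 3.77 at 2 days against untreated cells and to 3.17 against 2 hours, where its rank was 2. It moved the genes called to 654 at 2 days, 95 at 2 hours and 810 between the times, and the list genes called to 17 of 126, 9 and 17, from 40, 17 and 43. The mean of a gene's probes gave 250 genes at 2 hours. Leaving out 1 array at a time gave Ubd log2 differences of 2.99 to 3.44 at 2 days, 0.31 to 0.54 at 2 hours and 2.57 to 3.02 between the times, with ranks of 1 to 2, 136 to 475 and 1. Genes called then ranged over 1150 to 1536 at 2 days, 187 to 384 at 2 hours and 1270 to 2155 between the times, and list genes called over 28 to 38, 13 to 18 and 25 to 46. Leaving out 1 array of the group not compared leaves its other array with no residual, so that fit is the fit of the compared groups alone and is no separate check. The lowest gene counts came without replicate 2 of the 2 day group (2 days) or replicate 2 of the 2 hour group (the other comparisons). The totals of genes and of list genes called stayed within 1.5 times with an offset of 16, median centring, cyclic loess and other filters. They also did with other variance models and fits of the compared groups alone. The counts of single lists moved more under some of these. Same-numbered arrays did not deviate together (correlations of -0.148, -0.075 and 0.036). With 2 arrays a group this cannot tell whether same-numbered samples share a mouse or culture. A replicate block called 1638, 363 and 2007 genes and 39, 17 and 43 list genes, and left the Ubd differences at 3.22, 0.42 and 2.79. No named call changed direction under any alternative.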
